A study of Homo sapiens with 12 samples.

Results

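The comparison described here set REC1 cells exposed to ibrutinib together with SPX5551 (the combination) against REC1 cells exposed to ibrutinib alone, and asks what SPX5551 added once ibrutinib was already present. Its members are 6 of the 12 libraries of the study, 3 for the combination and 3 for ibrutinib, chosen by what the column headers say and matched at 4, 8 and 12 h. REC1 is an established human mantle cell lymphoma line. All 6 libraries share the line and the exposure to ibrutinib, so they differ by treatment only in SPX5551. The other 6 libraries are 3 exposed to DMSO (the vehicle) and 3 exposed to SPX5551 alone, at the same times. Each treatment and time has 1 library, so the 3 times stand in for replicates and a p-value covers no more than the spread among these libraries. A single cell line limits what the samples can stand for. The sources used here give no doses.

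Ibrutinib covalently inhibits BTK, the tyrosine kinase that relays signals from the B-cell receptor to calcium, MAP kinase and NF-kappaB pathways. CXCR4, the receptor of the chemokine CXCL12, signals through G proteins of the inhibitory class and keeps B cells in marrow and lymph node niches. In mantle cell lymphoma, B-cell receptor signals and niche contacts both promote growth. SPX5551, written pol5551 in the headers, is the agent that the title of the study presents as a CXCR4 inhibitor.

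The count table held 60483 genes, of which 14412 were expressed well enough to be tested. Total counts were 21548332, 28121563 and 19336303 with ibrutinib and 22951827, 28934030 and 24432822 with the combination at 4, 8 and 12 h. The labels contradict each other: titles and treatments match the headers, whereas the free-text descriptions assign each column to a different treatment. By the descriptions, the samples compared here would own the columns headed pol5551 and dmso, between which 0 genes passed in edgeR, with 1200 at an unadjusted p under 0.05. Everything below follows the headers. The summed level of 11 B-cell markers was 5225 to 5705 CPM (counts scaled to a common library size) with ibrutinib and 4559 to 5624 CPM with the combination. Over these 6 libraries CCND1 was at 1274 to 1705 CPM, SOX11 at 4.41 to 7.07 CPM and CD5 near 0, at 0.152 to 0.320 CPM. The 9 T-cell markers summed to 7.61 to 9.65 and 6.75 to 10.4 CPM, with CD8B at 0 counts throughout, and the 9 myeloid markers to 1.04 to 1.92 and 1.39 to 2.18 CPM, with FCGR1A, S100A8 and S100A9 at 0. The 10 stromal and epithelial markers summed to 69.5 to 99.5 and 47.3 to 77.7 CPM. PDGFRB, KRT18 and EPCAM, all above 3 CPM in each of these 6 libraries, made up most of that sum, and COL1A2 and COL3A1 were near 0. What part these low levels have in the results was not tested.

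Under TMM scaling more genes passed the test as lower than as higher with SPX5551 added to ibrutinib, an order that scaling by library size alone reversed (265 lower, 454 higher). In edgeR's quasi-likelihood test with time as a block, 791 of the 14412 genes (5.49%) passed an adjusted p of 0.05, 302 higher with the combination (2.1%) and 489 lower (3.39%). The decreases included ribosome biogenesis factors, enzymes of sterol and fatty acid synthesis, receptors of B-cell positioning and adhesion, B-cell transcription factors and MYC. The increases included ID1 and ID3, the MYC antagonists MXD3 and MXD4 and a few autophagy genes. Most changes were modest: the median log2 fold change was 0.54 among the higher genes (0.30 to 1.77) and -0.47 among the lower genes (-1.94 to -0.28), and 24 and 31 of them reached 1 on the log2 scale. All 302 higher genes and 488 of the 489 lower genes differed in 1 direction at all 3 times, as did 5541 of the 13621 that did not pass. Passing a test on these same differences favours 1 direction, so this is no independent evidence. The CPM values of the 3 combination libraries did not overlap those of the 3 ibrutinib libraries in 1931 genes (13.4%), 1072 with the combination higher (7.44%) and 859 lower (5.96%). By this measure, which leaves out the time block, more genes were higher, the reverse of the order among genes that passed.

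The number of genes that passed depended on single libraries and times. It was 84, 76 and 386 without the 4, 8 or 12 h ibrutinib library, and 212 and 107 without the 4 or 8 h combination library. Leaving out the 8 h DMSO library gave 526, the 8 h SPX5551 library 525 and the 12 h SPX5551 library 1244. Without the 4, 8 or 12 h time point 2, 6 and 1643 genes passed, so list counts below also fell to 0 or 1 without 4 or 8 h. With no time term 0 passed (1339 at an unadjusted p under 0.05). The median of all tested genes was 0.01 with TMM and 0.05 with library size.

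**Figure D1:**
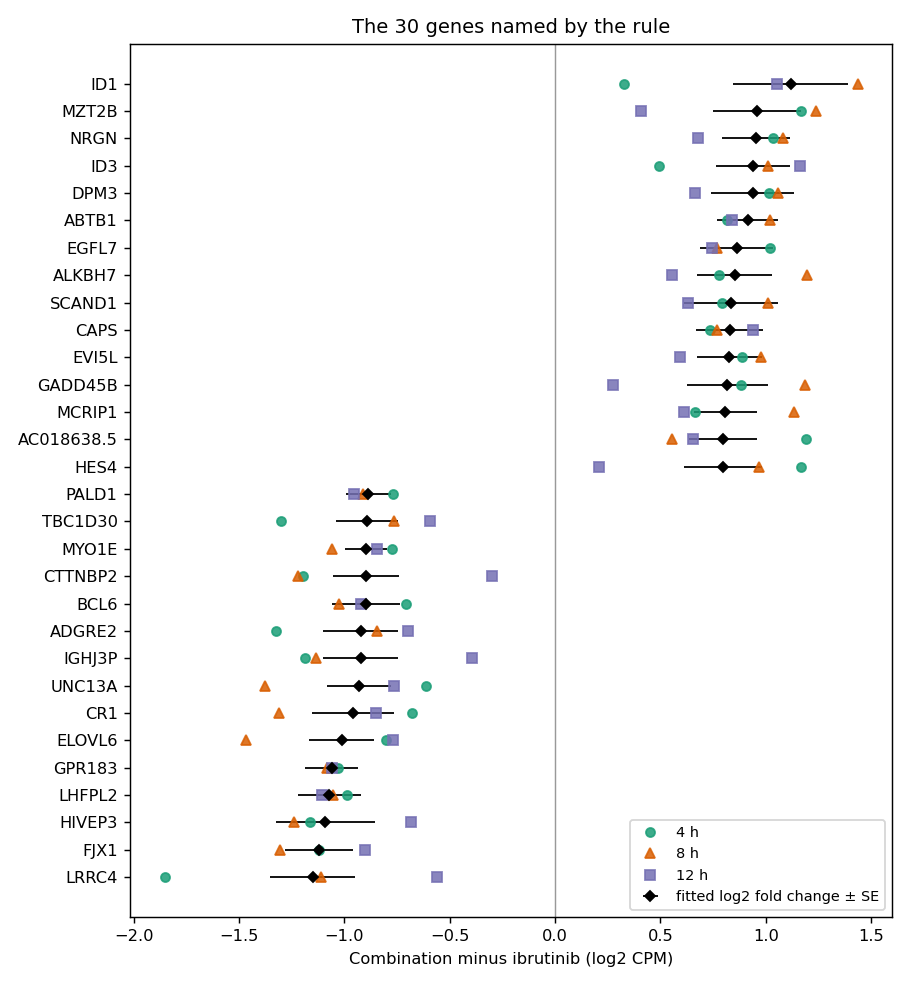
Combination minus ibrutinib for the 30 genes named by rule, on the log2 CPM scale (horizontal axis). Diamonds with bars are the fitted log2 fold change ± SE and the other symbols are the differences at 4, 8 and 12 h, which share their sign within each gene by the rule.

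Genes are named by a rule: among those that passed with 1 sign at the 3 times and a mean log2 CPM no lower than 2 (258 higher and 459 lower), the 15 with the largest change in each direction. When 1 of the 12 libraries or 1 of the 3 times was left out (15 settings), each of these 30 genes lost its call at least once, from 1 setting for MYO1E to 10 for SCAND1. The gene with the smallest p was MYO1E, a class I myosin of membrane and actin dynamics. It had 50.1, 36.4 and 30.9 CPM with ibrutinib at 4, 8 and 12 h and 29.3, 17.4 and 17.1 CPM with the combination. The combination libraries all lay below the ibrutinib libraries, and the log2 fold change was -0.90 ± 0.10 (SE, n = 3; adjusted p = 0.00149, edgeR). FJX1 (-1.12), the netrin-G ligand LRRC4 (-1.15), the zinc finger factor HIVEP3 (-1.09), LHFPL2 (-1.07) and the phosphatase-like PALD1 (-0.89) fell as well. The vesicle priming factor UNC13A (-0.93), the adhesion G protein-coupled receptor ADGRE2 (-0.92), the cortactin-binding CTTNBP2 (-0.90) and TBC1D30 (-0.89) fell by similar amounts. IGHJ3P (-0.92) is a joining-segment pseudogene in the heavy-chain locus, and its reads may belong to other transcripts of that locus.

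Receptors that place B cells in lymphoid tissue, and adhesion molecules, were among the decreases. Of 20 tested genes of homing and adhesion 0 rose, 5 fell and 15 did not pass, with a median log2 fold change of -0.26 where all tested genes had 0.01. GPR183, the oxysterol receptor that guides B cells within follicles (chr13:99294530-99307405, hg38), had 25.2, 30.9 and 42.4 CPM with ibrutinib and 12.3, 14.5 and 20.3 CPM with the combination. Each combination library lay below each ibrutinib library, and the log2 fold change was -1.06 ± 0.12 (SE, n = 3; adjusted p = 0.00163, edgeR). CD44, the hyaluronan receptor, went from 323, 218 and 198 CPM to 179, 139.5 and 149 CPM (-0.64 ± 0.10). ITGA4, the alpha 4 integrin subunit, had 63.3, 89.4 and 95.3 CPM with ibrutinib against 38.9, 33.3 and 71.6 CPM with the combination (-0.84 ± 0.16). For CD44 the groups did not overlap, whereas the 12 h combination library exceeded the 4 h ibrutinib library for ITGA4. CXCR3, a chemokine receptor at a low level, fell by 1.64 ± 0.31, from 2.85, 1.71 and 0.91 CPM to 0.57, 0.71 and 0.38 CPM. At 4, 8 and 12 h the median of the list was -0.36, -0.35 and -0.12. With single libraries left out 2 to 6 of its genes fell, the fewest without the 4 h combination library, where 1 also rose.

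A group of genes on chromosome 1, most of them for B-cell surface proteins, had the lowest median of the lists examined. This list (FCRL1 to FCRL5, FCRLA, CR2, CR1, CD1C and CD1D) was put together after its values had been seen. Its counts and the rank of its median are therefore a description only. All 10 members had a negative log2 fold change, with a median of -0.60, and 5 passed the test, where 3.39% of all tested genes fell. FCRL4, an Fc receptor-like inhibitory receptor, had 62.5, 86.1 and 74.5 CPM with ibrutinib and 32.7, 40.6 and 53.3 CPM with the combination, a change of -0.83 ± 0.11 (SE, n = 3; adjusted p = 0.00259, edgeR). All 3 combination libraries lay below the ibrutinib libraries. FCRL3 (-0.81 ± 0.12), the complement receptors CR2 (-0.86 ± 0.14) and CR1 (-0.96 ± 0.19), and the lipid antigen-presenting CD1C (-0.79 ± 0.10) fell too. FCRL5 (-0.41, adjusted p = 0.0615), FCRL2 (-0.31), CD1D (-0.27), FCRL1 (-0.17) and FCRLA (-0.10) did not pass.

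**Figure D2:**
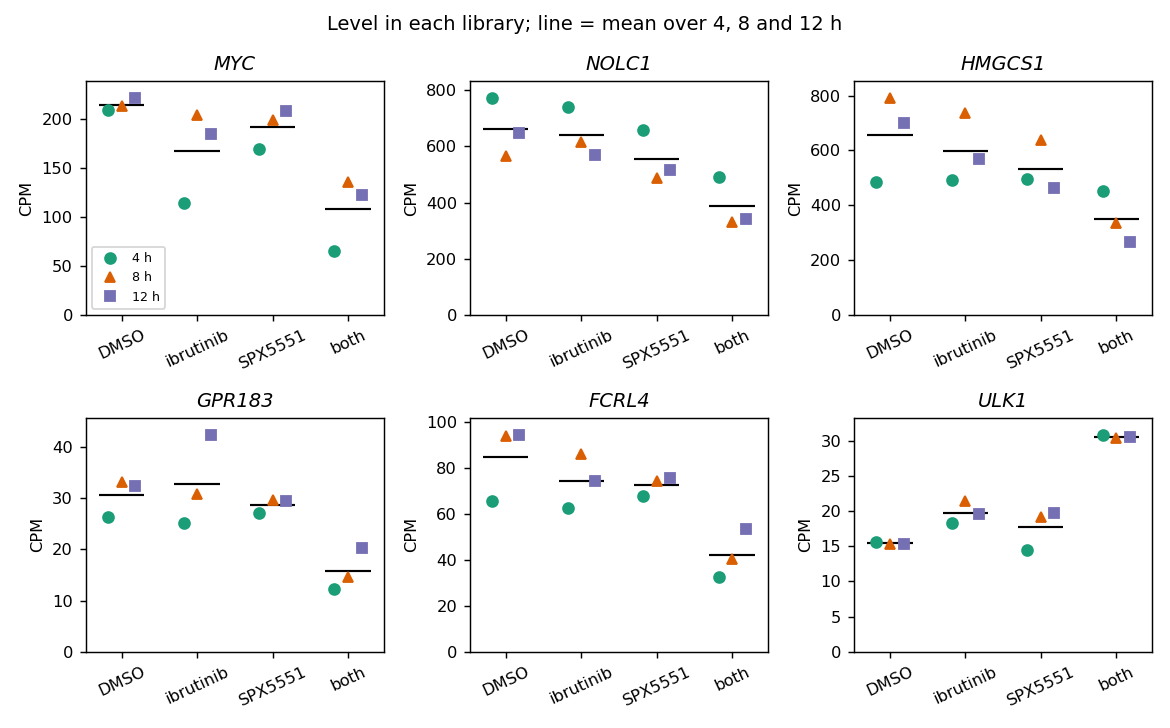
CPM (vertical axes, from 0) of 6 example genes in each of the 12 libraries, with both standing for the combination, 1 symbol per time and a line at the mean of the 3 times. GPR183, NOLC1 and FCRL4 lie lower, and ULK1 higher, in the 3 combination libraries than in the ibrutinib libraries, HMGCS1 lies just below them at 4 h and further below at 8 and 12 h, and MYC overlaps between these 2 treatments.

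Transcription factors that hold B-cell identity fell in part. Of 19 tested genes 0 rose, 4 fell and 15 did not pass, with a median of -0.20. Over all tested genes 2.1% rose and 3.39% fell. PAX5, the factor that commits cells to the B lineage, had 488, 700.0 and 619 CPM with ibrutinib and 292, 331 and 519 CPM with the combination, and fell by 0.69 ± 0.16 (SE, n = 3; adjusted p = 0.0221, edgeR). The drop was smallest at 12 h, and the 12 h combination library lay above the 4 h ibrutinib library. IKZF1 (-0.63 ± 0.14) and IKZF3 (-0.50 ± 0.10), zinc finger factors of lymphoid development, fell. So did BCL6, a transcriptional repressor that upholds the germinal centre programme (-0.90 ± 0.16). With the length and GC trend removed 7 of the list fell and the median was -0.29, and DESeq2 called 7 lower. Fewer cells with a transcript and less of it per cell cannot be told apart in bulk RNA. Without single libraries 0 to 6 of the list fell, 0 without the 8 h combination library and 1 without the 4 h combination, 4 h ibrutinib or 8 h ibrutinib library. Of 27 components of B-cell receptor signalling 4 fell and 23 did not pass, with a median of -0.23. They were the co-receptor CR2, the adaptor SH3BP2 (-0.48 ± 0.09), the PI3-kinase subunit PIK3CD (-0.45 ± 0.11) and the protein kinase PRKCB (-0.36 ± 0.10). This count was 1 to 7 without single libraries, lowest without the 4 h ibrutinib library, 9 with DESeq2 and 2 with scaling by library size, and the median was -0.09 at 12 h.

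The drug targets did not pass. CXCR4 (chr2:136114349-136118165, hg38) had 16.7, 28.98 and 25.3 CPM with ibrutinib and 16.6, 32.5 and 24.7 CPM with the combination (0.05 ± 0.13, SE, n = 3; adjusted p = 0.856, edgeR). BTK had 316, 332 and 355 CPM with ibrutinib and 273, 265 and 342 CPM with the combination (-0.20 ± 0.08; adjusted p = 0.158). The atypical CXCL12 receptor ACKR3 was at 0.657 to 1.17 CPM with ibrutinib and 0.825 to 1.67 CPM with the combination (0.42 ± 0.29; adjusted p = 0.391), and CXCL12 was at 0 counts in all 12. Of 34 tested genes of the CXCR4 axis 1 rose and 33 did not pass, with a median of 0.03. As 2.1% of all tested genes rose, this count is no result about the list. The gene that rose was RGS19, which switches off inhibitory-class G proteins, from 95.01, 127 and 124 CPM to 123, 182 and 141 CPM (0.36 ± 0.09; adjusted p = 0.0292), and with the length and GC trend removed it did not pass.

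MYC, the growth-promoting transcription factor, fell, and 2 of its antagonists, MXD3 and MXD4, rose. MYC had 114, 204 and 185 CPM with ibrutinib and 64.9, 136 and 123 CPM with the combination, and fell by 0.65 ± 0.15 (SE, n = 3; adjusted p = 0.0234, edgeR). It was lower at each time, though the 8 and 12 h combination libraries lay above the 4 h ibrutinib library. MYC lost its call in 6 of the 15 settings with 1 library or time left out. Among these were the 8 h ibrutinib library (adjusted p = 0.149, edgeR) and the 4 h combination library (0.111). MXD3 and MXD4 encode partners of MAX that oppose MYC at shared sites. MXD3 went from 2.09, 2.60 and 4.55 CPM to 4.43, 7.52 and 6.79 CPM (1.06 ± 0.19), and MXD4 from 3.65, 6.72 and 11.6 CPM to 6.399, 12.6 and 16.4 CPM (0.72 ± 0.17). For both the 4 h combination library lay below the 12 h ibrutinib library. The other 8 of 11 tested genes of the network did not pass, and the median was -0.03. Over all tested genes 2.1% rose and 3.39% fell.

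Ribosome biogenesis factors fell together. The list had 20 of 32 genes lower, 0 higher and 12 that did not pass, where 3.39% of all tested genes fell and 2.1% rose. In it 31 had a negative log2 fold change, and the median was -0.36 (0.01 over all tested genes). The medians of the single times were -0.36, -0.33 and -0.44 at 4, 8 and 12 h, so that the shift was present at each. NOLC1, a nucleolar chaperone of small nucleolar particles (chr10:102152176-102163871, hg38), had 740.2, 617 and 568 CPM with ibrutinib and 491, 332 and 341 CPM with the combination. Its groups did not overlap, and it fell by 0.74 ± 0.09 (SE, n = 3; adjusted p = 0.00163, edgeR). WDR43, a small-subunit processing factor, went from 395, 252 and 263 CPM to 279, 153 and 186 CPM (-0.57 ± 0.09), and MYBBP1A, a nucleolar regulator of ribosomal RNA synthesis, from 183, 157 and 141 CPM to 120.1, 97.2 and 105 CPM (-0.58 ± 0.09). For WDR43 the 4 h combination library lay above the 8 and 12 h ibrutinib libraries, and for MYBBP1A the groups did not overlap. TSR1 (-0.57), the helicase DDX21 (-0.69) and RRP1B (-0.58) complete the 6 with the smallest p. The count was 6 to 24 without single libraries: 6 without the 4 h ibrutinib, 7 without the 8 h ibrutinib, 8 without the 8 h combination and 13 without the 4 h combination library. It was 0 without the 4 or 8 h time point, 16 without 12 h, and 27 when the 8 h ibrutinib and the 12 h SPX5551 library were both left out.

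Promoters were searched because ribosome biogenesis genes moved together and many are known to carry the MYC-type E-box CACGTG, which reads the same on both strands. RefSeq promoters (250 bases before to 50 after the start, GRCh38.p14) were found for 10277 of 14400 tested gene symbols, and 10.3% of these held CACGTG. It was in 72 of 374 promoters of genes that fell (19.3%), in 22 of 251 of genes that rose (8.76%), and in 8 of 25 of the tested ribosome biogenesis genes (32.0%), 5 of them among the 17 that fell with a promoter in the table. Within that list the share was 29.4% in the genes that fell, no higher than in the whole list. FBL, PES1 and RRP9 held CACGTG but did not pass, and TSR1 and DDX21 fell without holding it. Genes that fell were also more highly expressed (median of the mean log2 CPM 6.11, against 4.00 in genes that rose and 4.16 in those that did not pass). The shares were not matched for this. The sequence CCAAT, also searched, was in 37.3% of all promoters, 47.0% for genes that rose and 34.2% for genes that fell. The promoters of WDR43 (chr2:28894417-28894716, plus strand) and MYBBP1A (chr17:4555335-4555634, minus strand) are printed as the RefSeq sequence, 5′ to 3′, with the E-box in capitals. Both were picked because they hold a match. A match is a description of the letters, not evidence of a bound site.
WDR43: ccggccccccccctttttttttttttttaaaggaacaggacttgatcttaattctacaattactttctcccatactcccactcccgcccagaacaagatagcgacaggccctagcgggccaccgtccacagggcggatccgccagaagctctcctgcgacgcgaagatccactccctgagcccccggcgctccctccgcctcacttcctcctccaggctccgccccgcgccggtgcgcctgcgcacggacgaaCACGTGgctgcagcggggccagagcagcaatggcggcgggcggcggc
MYBBP1A: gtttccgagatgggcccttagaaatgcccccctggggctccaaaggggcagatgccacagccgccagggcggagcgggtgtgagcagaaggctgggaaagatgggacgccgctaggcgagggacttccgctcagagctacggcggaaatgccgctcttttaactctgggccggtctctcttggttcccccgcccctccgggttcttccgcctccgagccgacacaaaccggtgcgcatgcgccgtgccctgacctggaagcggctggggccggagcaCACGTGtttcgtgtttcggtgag

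Enzymes of sterol and fatty acid synthesis formed the other large group of decreases. The test was passed by 12 of 25 genes of this list, all lower, where 3.39% of all tested genes fell, and the median was -0.38. At 4, 8 and 12 h the medians were -0.12, -0.48 and -0.50. ELOVL6, a fatty acid elongase, had 14.8, 18.9 and 19.3 CPM with ibrutinib and 8.42, 6.78 and 11.3 CPM with the combination, without overlap (-1.01 ± 0.15, SE, n = 3; adjusted p = 0.00329, edgeR). HMGCS1, which makes the precursor of mevalonate, was chosen for display after its values were seen. It had 493, 736 and 569 CPM with ibrutinib and 453, 334 and 265 CPM with the combination (-0.75 ± 0.18), so that the groups did not overlap but differed little at 4 h. The desaturases FADS1 (-0.65 ± 0.11) and SCD (-0.65 ± 0.12), the squalene epoxidase SQLE (-0.61 ± 0.11) and ACLY, which supplies acetyl-CoA (-0.50 ± 0.11), fell as well. The sterol regulatory sequence TCACNCCAC, searched on both strands, was in 1.17% of all promoters and in 0 of the 9 found for the enzymes that fell. Without the 8 h ibrutinib or the 8 h combination library 2 enzymes fell, without the 4 h ibrutinib library 5, and without the 12 h ibrutinib or 12 h combination library 6. Without the 4, 8 or 12 h time point 1, 0 and 12 fell.

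**Figure D3:**
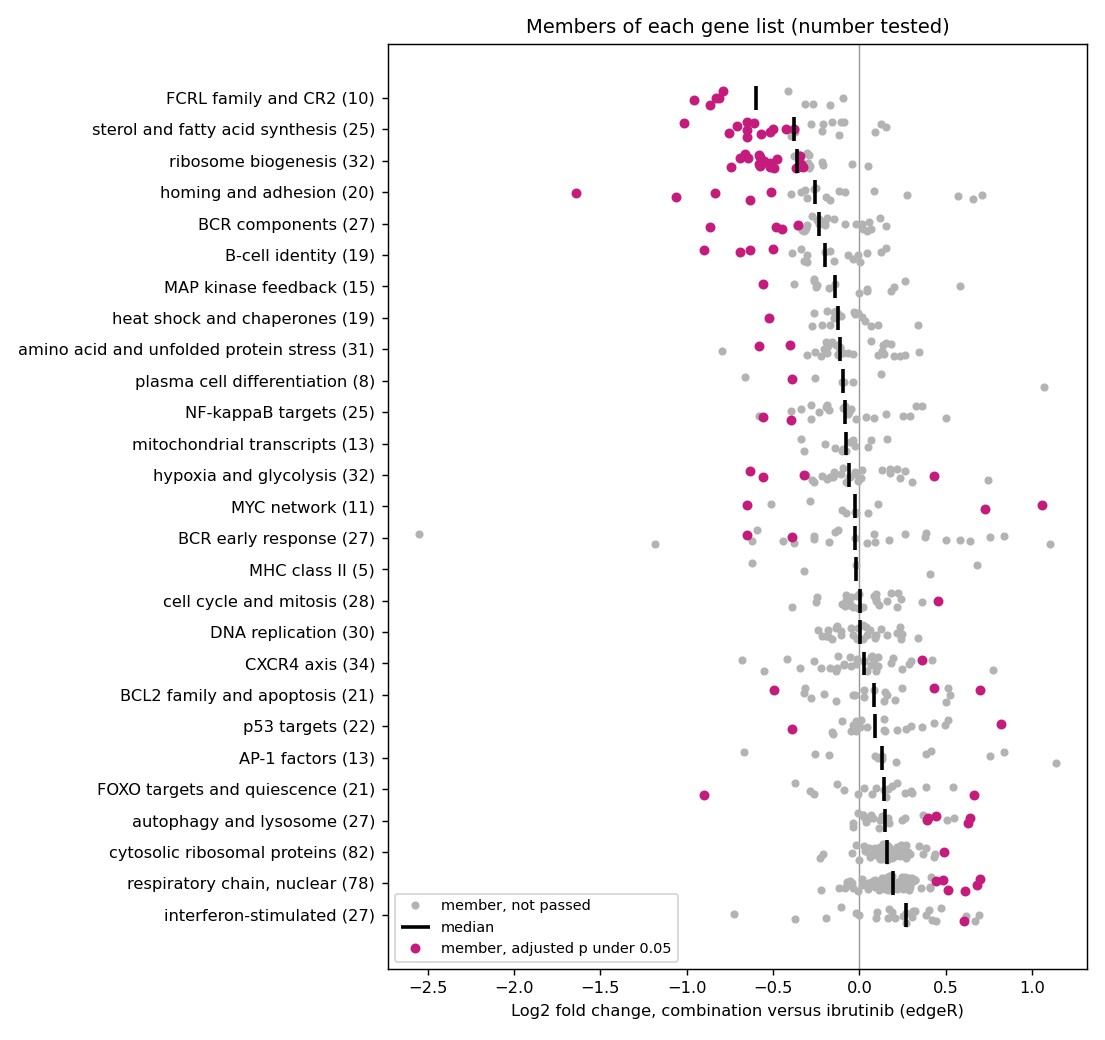
Log2 fold changes of combination versus ibrutinib (horizontal axis) for the tested members of each list, with the number tested in brackets, coloured where the adjusted p was under 0.05, and a bar at the median. Decreases gather in ribosome biogenesis (20 of 32) and sterol and fatty acid synthesis (12 of 25), against 3.39% of all tested genes. The FCRL family and CR2 list was chosen after its values were seen.

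Of 15 genes that were lower with ibrutinib than with DMSO, known from earlier results of these data, 2 fell with the combination and 13 did not pass, where 3.39% of all tested genes fell. With the trend in length and GC content removed 5 of the 15 fell, with no filter on low counts 4, and with scaling by library size 1. MIR17HG, which gives rise to a microRNA cluster, had 79.5, 77.2 and 95.05 CPM with ibrutinib and 52.4, 52.8 and 67.5 CPM with the combination, without overlap (-0.55 ± 0.09, SE, n = 3; adjusted p = 0.00481, edgeR). The other was CD180, a Toll-like receptor homologue (-0.47 ± 0.12). The list was chosen on ibrutinib libraries that also enter this comparison, so its direction is no independent evidence. Of 27 early response genes of the B-cell receptor 2 fell, MYC and IRF4 (-0.39 ± 0.10), a factor of B-cell activation, and the median was -0.02. With that trend removed 5 of the 27 fell. TNF had 1.04, 4.20 and 4.45 CPM with ibrutinib and 0.44, 1.87 and 1.91 CPM with the combination, without passing (-1.18 ± 0.38; adjusted p = 0.0794). Of 25 NF-kappaB targets, the apoptosis inhibitor BIRC3 (-0.56 ± 0.12) and the subunit gene NFKB1 (-0.39 ± 0.10) fell, and with the trend removed 4 fell and 1 rose. Of 13 AP-1 factors 0 passed in edgeR. JUNB (0.76, adjusted p = 0.0758) and JUND (0.41) had the smallest p, 4 members had an unadjusted p under 0.05, DESeq2 called 1, and 3 rose without the 12 h time point.

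The largest increases by the rule began with ID1, an inhibitor of basic helix-loop-helix factors. It had 0.996, 5.23 and 6.11 CPM with ibrutinib and 1.27, 14.3 and 12.8 CPM with the combination (1.12 ± 0.27, SE, n = 3; adjusted p = 0.0291, edgeR). ID1 did not pass in limma-voom (adjusted p = 0.0642) or limma-trend (0.0908), nor in edgeR without the 4, 8 or 12 h ibrutinib library (0.0909, 0.198 and 0.0557), the 8 h SPX5551 library (0.0506), or the 8 or 12 h combination library (0.1996 and 0.106). ID3, of the same family, had 9.11, 22.2 and 20.8 CPM with ibrutinib and 12.8, 44.8 and 46.6 CPM with the combination (0.94 ± 0.17). For both genes the level was higher at 8 and 12 h than at 4 h in either treatment, and the combination was higher at each time. The calmodulin-binding NRGN (0.95 ± 0.16), DPM3, a subunit of dolichol-phosphate mannose synthase (0.94 ± 0.20), ABTB1 (0.91 ± 0.14), the stress-induced GADD45B (0.82 ± 0.19) and EVI5L (0.83 ± 0.15) rose too. MZT2B of the gamma-tubulin ring (0.96), EGFL7 (0.86), ALKBH7 (0.85), SCAND1 (0.84), CAPS (0.83) and MCRIP1 (0.81) completed the list with AC018638.5 (0.80) and HES4, a Notch-responsive repressor (0.80). AC018638.5 is a processed pseudogene whose reads may come from another locus, and with the trend in transcript length and GC content removed, it and HES4 no longer passed (adjusted p = 0.103 and 0.238).

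A few autophagy genes rose, and single genes of cell death passed. Of 27 tested autophagy and lysosome genes 5 rose, 0 fell and 22 did not pass, with 24 positive and a median of 0.15. ULK1, the kinase that starts autophagy, had 18.3, 21.5 and 19.7 CPM with ibrutinib and 30.9, 30.4 and 30.6 CPM with the combination (0.63 ± 0.11, SE, n = 3; adjusted p = 0.00689, edgeR). Its 3 combination libraries were close together and above all other libraries. WIPI1 (0.64 ± 0.13), ATG16L2 (0.44 ± 0.09), the lysosomal protease gene CTSD (0.39 ± 0.09) and GABARAPL2 (0.40) also rose. Without the 4 h ibrutinib library 0 rose, and without the 8 h ibrutinib or 8 h combination library 2 did. With the length and GC trend removed, or with the 6 libraries alone, 3 rose. Of 21 genes of the BCL2 family and apoptosis 18 did not pass. The death promoter BAD (0.70 ± 0.15) and the caspase CASP9 (0.43 ± 0.12) rose and BCL2, which blocks cell death, fell by 0.49 ± 0.13. Among 21 FOXO targets, YPEL3 (0.66 ± 0.17) rose, BCL6 fell and 19 did not pass. Over all tested genes 2.1% rose and 3.39% fell, and these counts are no result about the 2 lists. Across the alternatives, the pairing of the descriptions aside, 0 to 6 and 0 to 4 of their genes passed.

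Nuclear-encoded genes of respiration and genes of the ribosome itself had medians above 0 at 4 and 8 h and below 0 at 12 h. Of 78 nuclear-encoded respiratory chain genes 6 rose and 72 did not pass, where 2.1% of all tested genes rose. The list median was 0.19, and 0.16, 0.49 and -0.02 at 4, 8 and 12 h. NDUFS7, a complex I subunit, went from 47.8, 49.1 and 52.1 CPM to 85.8, 92.7 and 65.4 CPM (0.70 ± 0.15, SE, n = 3; adjusted p = 0.0181, edgeR). Without the 12 h time point 32 rose, and 0 rose without the 4 or 8 h ibrutinib or the 4 or 8 h combination library. Of 82 cytosolic ribosomal protein genes only RPLP1 passed (0.49 ± 0.14), with list medians of 0.12, 0.48 and -0.11, and 22 rose without 12 h. The 13 transcripts of the mitochondrial genome had medians of 0.09, -0.12 and -0.12 at 4, 8 and 12 h, and 0 passed in edgeR, DESeq2 or limma, with 1 at an unadjusted p under 0.05 and 2 lower with no filter on low counts. The transcripts of these 2 nuclear lists are short (median 1266 and 1176 bases against 3052.5 over all tested genes), and differences between the libraries also followed length, as described further on. With that trend removed, 5 respiratory chain genes rose and the medians were 0.12 and 0.08.

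In the remaining lists single genes passed, against 2.1% higher and 3.39% lower over all tested genes, and these counts are no result about the lists. Of 27 interferon-stimulated genes the factor IRF7 rose (0.61 ± 0.14, SE, n = 3; adjusted p = 0.0234, edgeR) and 26 did not pass, with a median of 0.27; with the length and GC trend removed 3 rose and 2 fell. Of 32 genes of hypoxia and glycolysis the hexokinase HK2 (-0.64 ± 0.11), VEGFA (-0.56 ± 0.11) and PFKM (-0.32 ± 0.09) fell and the lactate exporter SLC16A3 rose (0.43 ± 0.12), and with the trend removed 6 fell and 2 rose. The amino acid transporters SLC7A1 (-0.58 ± 0.12) and SLC7A5 (-0.40 ± 0.11) fell, and the other 29 stress genes of that list (amino acids and unfolded proteins) did not pass. CCNE2, the cyclin of entry into S phase, rose by 0.45, the chaperone FKBP4 fell by 0.52, the MAP kinase phosphatase DUSP16 by 0.56 and the p53-induced nuclease AEN by 0.39. Among cell cycle and mitosis genes 27 of 28 did not pass. Of 30 DNA replication genes and 5 class II MHC genes 0 passed in edgeR, DESeq2 or limma, with 7 and 2 at an unadjusted p under 0.05, and 1 DNA replication gene rose with the trend removed or with scaling by library size. Of the stromal and epithelial markers, the adhesion molecule CDH1 (-1.39 ± 0.23), at 0.563 to 6.83 CPM, and PDGFRB (-0.61 ± 0.15) fell.

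To ask whether SPX5551 did the same without ibrutinib, its change relative to DMSO was set beside its change relative to ibrutinib, which shares no library with it. In SPX5551 versus DMSO 0 genes passed in edgeR, 1200 had an unadjusted p under 0.05, and limma-voom called 0. Without a filter on low counts DESeq2 called 2 and edgeR 112. Of the 489 genes lower with the combination, 474 (96.9%) also had a negative log2 fold change for SPX5551 versus DMSO, with a median of -0.19, against 50.1% of genes that did not pass. Of the 302 higher genes 237 (78.5%) had a positive one, with a median of 0.10. With the trend in length and GC content removed these shares were 91.0% and 74.5%. Directions of the values fitted over the 3 times were mostly shared. These genes all rest on the same DMSO and SPX5551 libraries, so the shares do not count independent cases. Signs at single times could differ, as in 2 genes picked after their values were seen. For SPX5551 minus DMSO at 4, 8 and 12 h, MZT2B had -0.79, 0.21 and 0.73 and BCL6 0.36, -0.33 and -0.44. No conclusion on sizes is drawn over these genes as a set. They were chosen for passing the test in the presence of ibrutinib, which favours larger values there.

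The difference between both settings was tested directly as combination minus ibrutinib minus SPX5551 plus DMSO. In that contrast 0 genes passed in edgeR (smallest adjusted p = 0.285), with 845 at an unadjusted p under 0.05, DESeq2, which also tested genes of very low counts, called 5, and 109 passed without the 12 h time point. GPR183 had 26.4, 33.1 and 32.5 CPM with DMSO and 27.2, 29.6 and 29.6 CPM with SPX5551, which do not separate, so its drop of 1.06 with ibrutinib present stands beside -0.08 ± 0.12 without it (difference -0.98 ± 0.17, SE, n = 3; adjusted p = 0.285, edgeR). PALD1 (-0.86), FJX1 (-1.07), LAMP5 (-0.66) and MIB2 (0.88) were the others with the smallest p for the difference. MYO1E had -0.42 ± 0.10 without ibrutinib, and its difference of -0.47 did not pass either (adjusted p = 0.750, edgeR). NOLC1 had -0.26 ± 0.09, UNC13A -0.36 and CTTNBP2 -0.55.

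**Figure D4:**
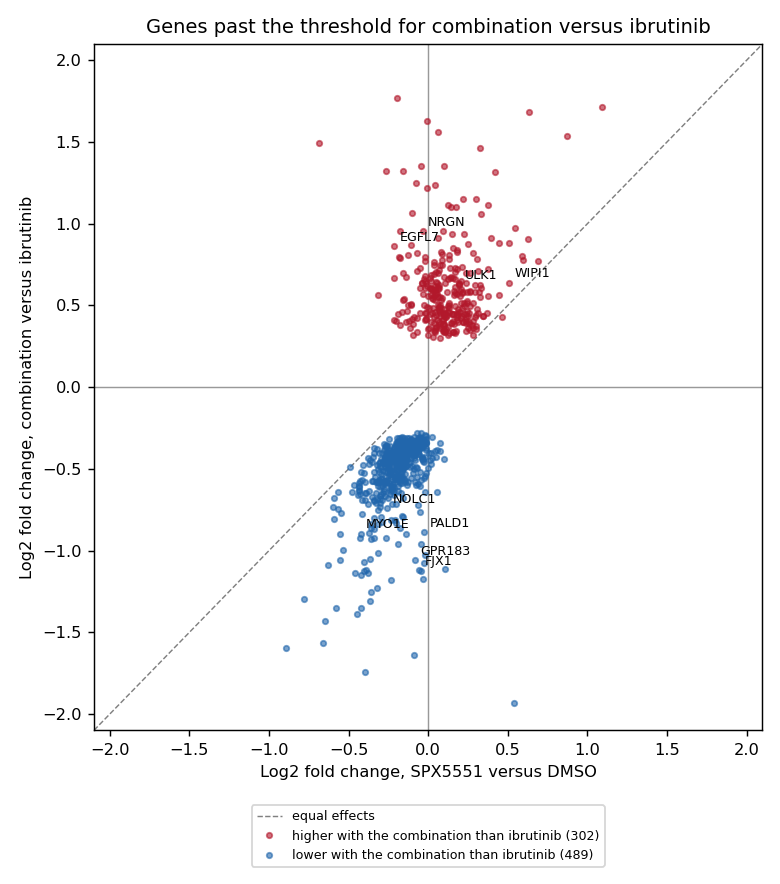
Log2 fold change of SPX5551 versus DMSO (horizontal) against that of the combination versus ibrutinib (vertical) for the 791 genes that passed in the latter, 1 point per gene, with the dashed line at equal effects. Most of the 489 lower genes lie left of 0 and most of the 302 higher genes right of 0 and passing the test set the gap around 0 on the vertical axis. The genes were chosen on the vertical axis, so their distance from the dashed line is not read as a result.

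The size of the added change differed between times. Among the 10113 genes whose mean log2 CPM reached 2, the SD of combination minus ibrutinib on the log2 scale was 0.27, 0.40 and 0.23 at 4, 8 and 12 h. At least 1 on that scale was reached upwards by 16, 44 and 5 genes and downwards by 25, 103 and 9 genes at 4, 8 and 12 h (0.158%, 0.435% and 0.0494%, and 0.247%, 1.02% and 0.089%). Single times have no replicate check. A linear trend of the difference over time passed for 0 genes in edgeR (smallest adjusted p = 0.0995), with 437 at an unadjusted p under 0.05 and 1 in DESeq2. The smallest p belonged to TSPAN11, a tetraspanin, with 33.5, 19.1 and 19.8 CPM with ibrutinib and 33.1, 9.74 and 4.73 CPM with the combination. LTB, which encodes lymphotoxin beta, had 37.8, 35.3 and 52.6 CPM against 40.1, 35.3 and 23.6 CPM. Both genes were alike at 4 h and lower with the combination at 12 h, but neither trend passed. MRPL12, GLIPR1-AS1 and ZNF860 followed.

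The changes also ran along transcript length. Across 14316 genes Spearman's rho between the log2 fold change and transcript length was -0.34, a description over genes that share libraries, and per time it was -0.19, -0.48 and -0.01 at 4, 8 and 12 h. The shortest of 5 equal classes of genes by length held 96 increases and 10 decreases, and the longest 15 and 201. The median transcript was 2049 bases in the higher genes, 4838 in the lower genes and 3052.5 in all. When each library's trend with length and GC content was removed, rho was -0.02, 1209 genes passed (395 higher, 814 lower), and 647 of the 791 were among them. The shortest class then held 61 increases and 62 decreases and the longest 96 and 208. Ribosome biogenesis held 27 decreases of 32 and sterol and fatty acid synthesis 14 of 25 in that fit, with medians of -0.39 and -0.42. For SPX5551 versus DMSO, rho between the log2 fold change and transcript length was -0.36. Within single libraries, rho of transcript length with the departure of each gene from its average level was 0.17, 0.42 and 0.34 for ibrutinib and -0.03, -0.31 and 0.24 for the combination. It was -0.16, -0.32 and 0.39 for DMSO and -0.20, -0.41 and -0.39 for SPX5551, so that libraries without any drug leaned too. Since each treatment and time has 1 library, such a lean of a library and the treatment cannot be told apart.

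**Figure D5:**
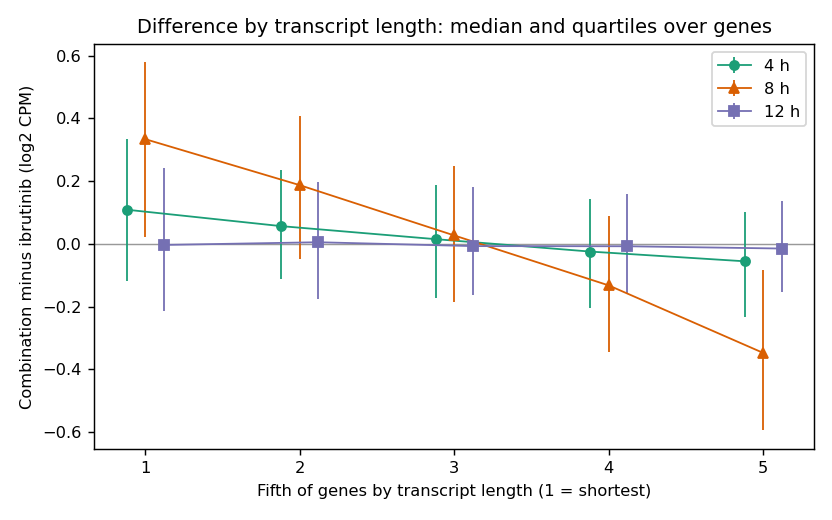
Combination minus ibrutinib (log2 CPM, vertical) in 5 equal classes of genes by transcript length (1 shortest, 5 longest), as the median with quartiles over genes, 1 line per time. The medians slope down at 8 h, less at 4 h, and stay near 0 at 12 h.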

How the data were processed

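Per the labels' protocols, poly(A) RNA of REC1 cells was sequenced from directional libraries; their entry of genomic DNA for the molecule contradicts this. The authors deposited whole-number counts per Ensembl gene, used for the tests, and log2 CPM values, used in 1 alternative (limma-trend). Per the submitters' processing notes, BWA and hg38 were used. The counting tool, annotation release and strand setting were not given in the sources used here, so reads of antisense or overlapping genes may be included.

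Symbols and positions came from GENCODE 29 (93.8% of identifiers). Genes were kept with filterByExpr by treatment (14412 genes, 99.9% of counts), scaled by TMM, and tested with edgeR 4.0.16 (R 4.3.3) by quasi-likelihood F-tests on all 12 libraries with treatment and time as terms and Benjamini-Hochberg adjustment at 0.05. This left 6 residual degrees of freedom (3 for trends over time), and the biological coefficient of variation was 0.101. Standard errors were obtained from the size of the log2 fold change and F (their quotient, with the root of F). CPM used TMM-scaled totals, and log2 CPM of single libraries a prior count of 2. The comparison is paired by time, as the headers give it. From each list the genes that passed, at most the 6 with the smallest p, or else the 2 with the smallest p, are named. Some genes that this rule would name are not reported here. The members and lists were chosen with earlier results of these data known. The steps were tested on simulated data. Alternatives were DESeq2 1.42.0, limma 3.58.1 (voom and trend), other scalings and filters, the 6 libraries alone, a removed trend in length and GC content, the pairing of the descriptions, and libraries or times left out.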

Additional observations from a re-analysis of the deposited data

How the results depend on the processing

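Numbers of genes past the threshold are given first for the combination versus ibrutinib, 791 in edgeR. They were 1404 with no filter on low counts and 1209 with the length and GC trend removed. The comparison is paired by time; with no replicate block (no time term) 0 passed, and with columns paired by the descriptions 0 passed. Leaving out single libraries or times gave 2 to 1643. The alternatives DESeq2 (1173), limma-voom (759), limma-trend (691), RLE factors (803), library size (719), a mean of at least 1 CPM (808), the 6 libraries alone (561), and leaving out both the 8 h ibrutinib and the 12 h SPX5551 library (588) stayed within 1.5 times. For the difference of the SPX5551 effect with and without ibrutinib, 0 in edgeR, the count was 5 with DESeq2, 32 with no filter, 973 by the descriptions, 8 with those 2 libraries left out, and 0 to 109 with single libraries or times left out. For the trend over time, 0 in edgeR, it was 1 with DESeq2, 3 with no filter, 1 once the trend in length and GC was taken out, and 0 to 12 when single libraries were dropped. By the descriptions 4 named genes had the opposite sign: NRGN (-0.0353), EGFL7 (-0.22), AC018638.5 (-0.19) and HES4 (-0.0215). That pairing compares other columns by construction. Elsewhere the cause of a change in count was not tested. Low counts limit the precision of genes such as CXCR3 and ACKR3.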

Other observations

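Some of the largest changes between the combination and ibrutinib lay in genes too low for the naming rule, and the following were chosen after their values had been seen. TNFSF15, a member of the tumour necrosis factor family, had 5.50, 2.88 and 1.97 CPM with ibrutinib at 4, 8 and 12 h and 1.67, 1.02 and 1.2001 CPM with the combination, a log2 fold change of -1.35 ± 0.21 (SE, n = 3; adjusted p = 0.00510, edgeR). IL7, which encodes a growth factor of lymphocytes, had 6.404, 1.99 and 1.87 CPM against 2.98, 1.19 and 0.488 CPM (-1.14 ± 0.27, adjusted p = 0.0277). For IL7 the 4 h combination library lay above the 8 and 12 h ibrutinib libraries, while for TNFSF15 the groups did not overlap. LIF, a cytokine of the interleukin 6 family at 1.14 CPM or less in each of these libraries, had the lowest log2 fold change of the genes that passed (-1.94 ± 0.51, adjusted p = 0.0381), but its change for SPX5551 versus DMSO was 0.54.

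Among the increases of low genes were MT2A, a metallothionein (1.15), and the histone gene H2AC12 (1.77 ± 0.43, adjusted p = 0.0296), with 0.190, 0.213 and 0.101 CPM with ibrutinib and 0.438, 0.817 and 0.525 CPM with the combination. At the level of H2AC12 each value rests on few counts.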
